A study of Caenorhabditis elegans with 2 samples.

Results

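The srh genes (serpentine receptor class H) are one of the large chemoreceptor gene families of the nematode Caenorhabditis elegans. They were taken as every protein-coding gene of the WBcel235 genome annotation whose symbol starts with srh-, which gave 220 of 19973 genes. Membership goes by symbol and by no measured value, although the family was picked for study with earlier results of these data known. For each gene, regions recovered with the tagged transcription factor JUN-1 were looked for in promoter windows. A window covered the 1000 bp before and the 200 bp after each annotated transcript start. A gene was counted where such a window held a summit, the position of highest signal in a deposited peak region, and its strongest summit was kept.

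The data came from chromatin immunoprecipitation and sequencing (ChIP-seq) of jun-1 tagged with eGFP in whole L4 larvae, the last stage before adulthood. All worms were of strain OP234, with the genotype unc-119(ed3) III and wgIs234, where wgIs234 is the insertion that targets jun-1, and males and females were pooled. There was 1 group, with 2 biological replicates from separate biosamples, and whether these were separate cultures is not given in the labels. Every animal therefore carried the unc-119 allele and the insertion, and no source used here gives the cells in which the insertion is expressed. Tissue was not separated, so fewer cells with a bound site and less binding per cell cannot be told apart. No RNA was measured, and the lists bear on binding only.

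Peak lists on the ce11 build, which is WBcel235, were used. The replicate lists held 19396 and 23742 regions for replicates 1 and 2, and the list called from both replicates jointly held 13085. These lists include background regions, since they were the input to a test of reproducibility. The 899 regions past the threshold of that test, called reproducible here, were also the 899 regions of highest signal in the joint list. The signal is the authors' own value for each region. Its scale is given in no source used here, so it was compared within a list only. Read depth was unknown.

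Chemoreceptors of nematodes are G protein-coupled receptors that span the membrane several times and mostly sit in the sensory cilia of chemosensory neurons, where they bind odours, tastants and pheromones. The srh family belongs with srd, sri, srj and str to the str superfamily, whose members lie in dense clusters of recent duplicates, above all on chromosome V. JUN-1 is a basic leucine zipper protein related to the Jun subunit of the AP-1 factor, which binds as a dimer to short palindromic sites.

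The sequences at the strongest srh sites are printed because the results for reproducible binding rest on these 4 promoters, with srh-76 as the first site below the reproducibility threshold. Each is the plus strand of ce11 and, apart from srh-2, runs 50 bp to either side of the joint-list summit. Capitals mark GAGAGA in srh-269 and srh-76, and the bases that belong to the snoRNA gene T21B4.20 in srh-70. The srh-2 stretch, chrV:731374-731431, was shortened to limit untranslated sequence, and neither it nor the srh-16 sequence has capitals. The others are chrV:12291777-12291877 for srh-16, chrV:16592336-16592436 for srh-269, chrII:12519047-12519147 for srh-70 and chrV:5833072-5833172 for srh-76.
srh-2: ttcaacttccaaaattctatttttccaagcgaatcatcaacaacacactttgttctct
srh-16: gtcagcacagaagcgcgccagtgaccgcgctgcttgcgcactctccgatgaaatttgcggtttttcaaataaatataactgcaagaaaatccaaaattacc
srh-269: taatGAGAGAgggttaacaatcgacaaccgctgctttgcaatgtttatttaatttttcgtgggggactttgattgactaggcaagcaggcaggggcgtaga
srh-70: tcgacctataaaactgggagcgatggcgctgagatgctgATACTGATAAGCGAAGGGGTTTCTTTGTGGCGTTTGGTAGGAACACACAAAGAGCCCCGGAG
srh-76: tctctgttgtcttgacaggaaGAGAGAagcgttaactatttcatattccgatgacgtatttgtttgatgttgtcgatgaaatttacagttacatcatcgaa

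Promoters of srh genes held tagged JUN-1 summits less often than those of other genes in each list before the threshold. In the joint list, 12 of 220 srh genes had a summit (5.45%, 95% exact Clopper-Pearson interval 2.85 to 9.33), against 4912 of 19753 other protein-coding genes (24.9%, 24.3 to 25.5). Over all genes tested the share was 24.7%. In replicate 1 the counts were 32 srh genes (14.5%, 10.2 to 19.9) and 6229 other genes (31.5%, 30.9 to 32.2), with 31.3% over all genes. In replicate 2 they were 28 srh genes (12.7%, 8.63 to 17.9) and 7082 other genes (35.9%, 35.2 to 36.5), with 35.6% over all genes. The intervals of the srh and other genes did not overlap in any of these 3 lists. They cover counting error over genes only, and neighbouring genes can share a summit. With the 13085 strongest regions of replicate 1 alone in place of the joint list, leaving out replicate 2, 22 srh genes (10%) and 4771 other genes (24.2%) had a summit.

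The share in the reproducible list was closer to that of other genes. Reproducible summits lay at 4 srh genes (1.82%, 0.498 to 4.59) and at 665 other genes (3.37%, 3.12 to 3.63), with 3.35% over all genes. Here the intervals overlapped, and with 4 genes a difference was not detectable. Of the genes with a joint-list summit, 33.3% of the srh genes and 13.5% of the other genes had a reproducible one, the first of these a share of only 12 genes.

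Measured per length of promoter sequence, the order was the same. Joint-list summits numbered 62.5 per Mb in the 0.272 Mb of srh windows and 192 per Mb in the 26.1 Mb of other windows. Replicate 1 gave 136 per Mb in srh windows and 259 per Mb in other windows, and replicate 2 gave 121 and 302 per Mb. For reproducible summits the densities were 14.7 per Mb in srh windows, from 4 summits, and 19.8 per Mb in other windows.

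**Figure D1:**
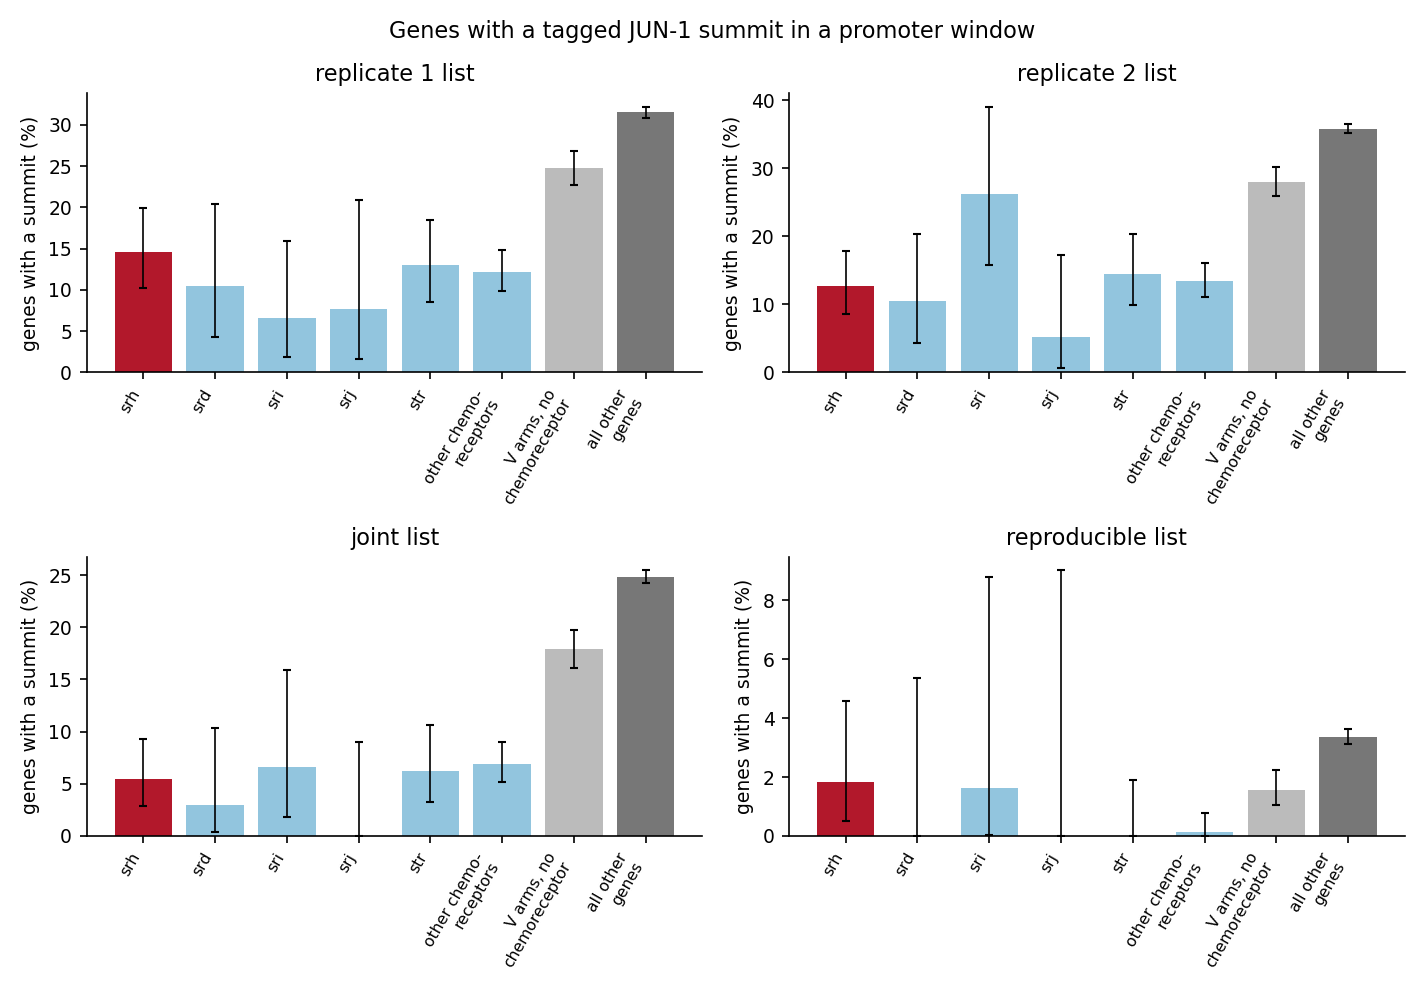
Share of genes with a summit in a promoter window (bars, % of genes, each panel with its own scale) in each of the 4 lists, with 95% exact intervals as error bars, for srh, the other families of the str superfamily, the remaining chemoreceptor families, genes on the arms of chromosome V that are no chemoreceptors, and all other protein-coding genes. The srh bars stand at 14.5%, 12.7%, 5.45% and 1.82%, against 31.5%, 35.9%, 24.9% and 3.37% for all other genes.

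Few srh promoters were found in both replicates. A summit lay in at least 1 replicate list at 50 of 220 srh genes (22.7%) and at 9256 other genes (46.9%). Of these 50, 22 had one in replicate 1 only, 18 in replicate 2 only and 10 in both lists. Summits of the replicates within 100 bp of each other, counted as matching, were found at 9 srh genes (4.09%, 1.89 to 7.62) and at 2605 other genes (13.2%, 12.7 to 13.7), with 13.1% over all genes. As a share of genes with any replicate summit, matching genes made up 18% of the srh genes and 28.1% of the other genes. No interval was computed for these 2 shares, and the first rests on only 50 genes. The remaining 170 srh genes had no summit in any of the joint and replicate lists.

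Most srh summits were also of ordinary signal within their lists. The median signal of the strongest summit was 10.5 for srh and 12.4 for other genes in replicate 1, and 9.41 for srh and 11.2 for other genes in replicate 2. The medians over all regions of these lists were 10.9 and 10.1. The strongest summit stood in the stronger part of the list, above its middle rank, for 15 of 32 srh genes (46.9%) and 63.3% of other genes in replicate 1, and for 13 of 28 srh genes (46.4%) and 61.1% of other genes in replicate 2. No interval was computed for these shares, and those of srh rest on few genes. In the joint list the order of the medians was the other way, with a median signal of 33.5 over 12 srh genes and 24.7 over other genes.

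**Figure D2:**
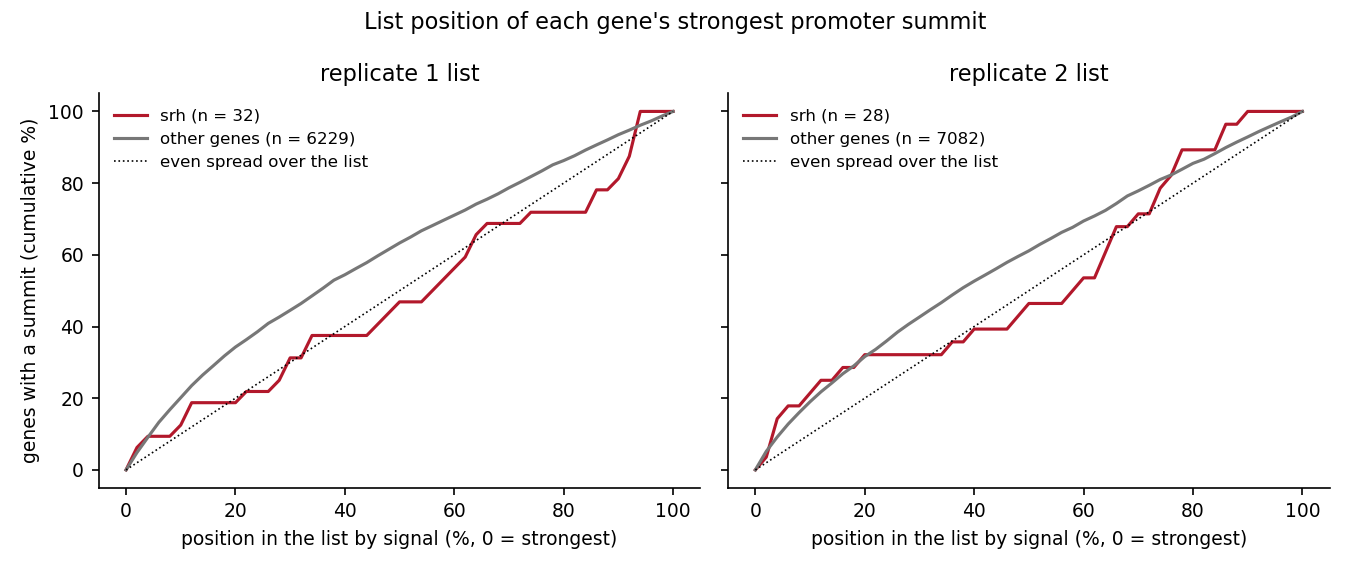
Cumulative share of genes with a promoter summit (vertical axis, %) against the position of their strongest summit in the replicate list by signal (horizontal axis, %, 0 is the strongest region), for srh genes and for other genes, with a dotted line for an even spread. At the middle of the list the srh curve had reached 46.9% of 32 genes in replicate 1 and 46.4% of 28 genes in replicate 2. Other genes stood at 63.3% and 61.1%.

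Just upstream of the transcript start, srh genes did not show the build-up of summits that other genes had. In bins of 250 bp from the earliest start, the bin just upstream held a summit in 3.64% of srh genes and 10.2% of other genes in replicate 1. In replicate 2 it held one in 3.18% of srh genes and 11.04% of other genes. The highest srh bin was 250 to 500 bp upstream in replicate 1 (5%) and 1750 to 2000 bp upstream in replicate 2 (6.82%), so the highest bin differed between replicates. In replicate 2 the bin 250 to 500 bp upstream held a summit in 4.55% of srh genes. Among other genes that bin stood at 7.25% in replicate 1 and 8.13% in replicate 2. Each srh bin rested on at most 15 genes, so a weaker build-up could be missed.

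**Figure D3:**
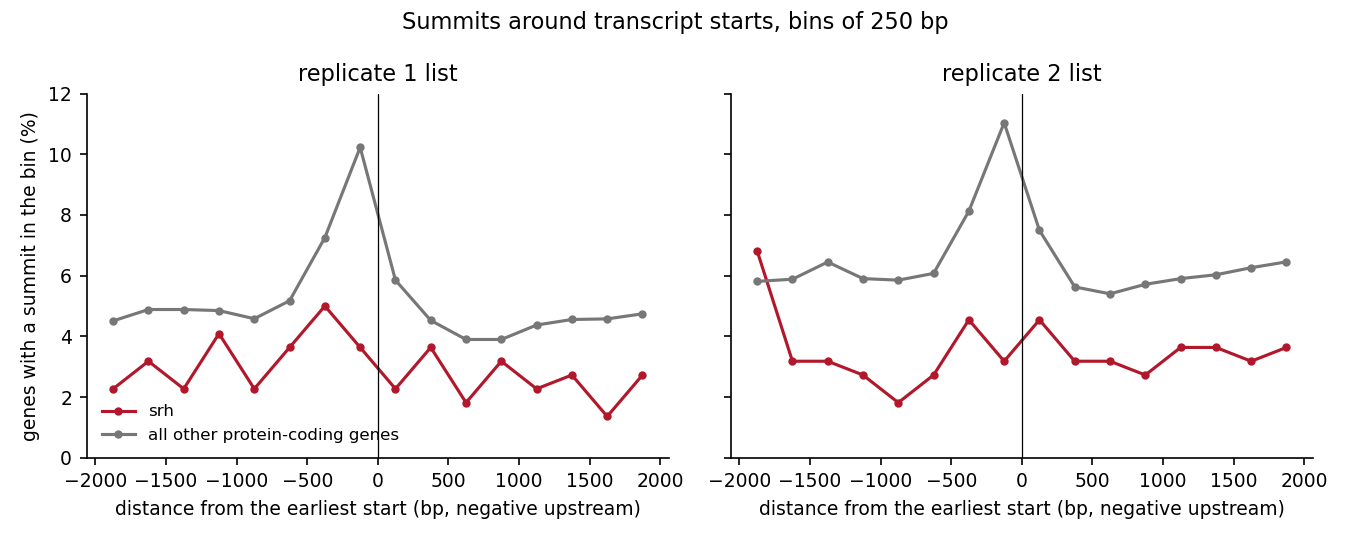
Share of genes with a summit in each 250 bp bin (vertical axis, %) by distance from the earliest transcript start (horizontal axis, bp, negative upstream), for srh genes and all other protein-coding genes, in each replicate list. Other genes peaked just upstream of the start at 10.2% and 11.04%, where srh genes stood at 3.64% and 3.18%.

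The strongest srh site was at srh-2, which spans chrV:728301-734311 on the plus strand and has 7 annotated transcript starts. Its joint-list region, chrV:731236-731611, had a signal of 78.8, rank 325 of 13085, and a summit at 731424. Replicate 1 had a signal of 44.6 (rank 245) and replicate 2 a signal of 40.9 (rank 324). The summit was not at the beginning of the gene. It lay 3123 bp inside it, 15 bp downstream of a later transcript start at 731409, in an exon annotated as untranslated. The replicate summits stood at 731421 and 731529, 108 bp apart and so just outside the distance counted as matching, and the gene's 2 matching pairs were weaker ones upstream of the earliest start. Their signals were 13.2 in replicate 1 and 15.2 in replicate 2 for one pair, and 14.5 and 12.4 for the other. Joint-list summits near the earliest start had signals of 32.3 and 31.7 and were not reproducible. The summit with a signal of 32.3 lay in a coding exon of the neighbouring icl-1, the bifunctional glyoxylate cycle enzyme gene. With the earliest start alone, srh-2 therefore has no reproducible summit.

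Of the 12 sites, that at srh-16 was the closest to the earliest start of its gene. The gene spans chrV:12291861-12294196 on the plus strand, and the joint-list summit at 12291827 lay 34 bp upstream of its only start in intergenic sequence. A promoter window of 1 other protein-coding gene also held this summit. The signal was 73.3 (rank 385) in the joint list, 43.7 (rank 260) in replicate 1 and 29.9 (rank 711) in replicate 2, with all 3 summits within 61 bp. No tRNA, snoRNA, snRNA, miRNA or rRNA gene lay in the window of srh-2 or srh-16.

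The site at srh-269 lay beside small RNA genes. The gene spans chrV:16590156-16592042 on the minus strand, and the joint-list summit at 16592386 was 344 bp upstream of its start, with a signal of 59.1 (rank 597). Replicate 1 had a signal of 35.7 (rank 441) and replicate 2 a signal of 26.1 (rank 983). A tRNA gene at chrV:16592237-16592308 lay 78 bp from this summit and the overlapping non-coding RNA gene T03E6.13 lay 67 bp from it. The gene end of cpl-1, which encodes a cathepsin L-like protease, was 186 bp away on the other side.

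The site at srh-70 fell inside a small RNA gene. The gene spans chrII:12516728-12518859 on the minus strand, and its joint-list summit at 12519097, 238 bp upstream of the start, lay in the snoRNA gene T21B4.20 (chrII:12519086-12519217). The joint signal was 49.9 (rank 883), close to the lowest reproducible signal of 49.6. Replicate 2 had a signal of 33.2 (rank 570) there and replicate 1 only 15.6 (rank 3523). In replicate 1 the strongest summit of the window, with a signal of 18.4, lay instead in the microRNA gene cel-mir-77, where the joint list also had a summit with a signal of 29.6. The joint summit was shared with the window of the homeobox gene ceh-99.

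**Figure D4:**
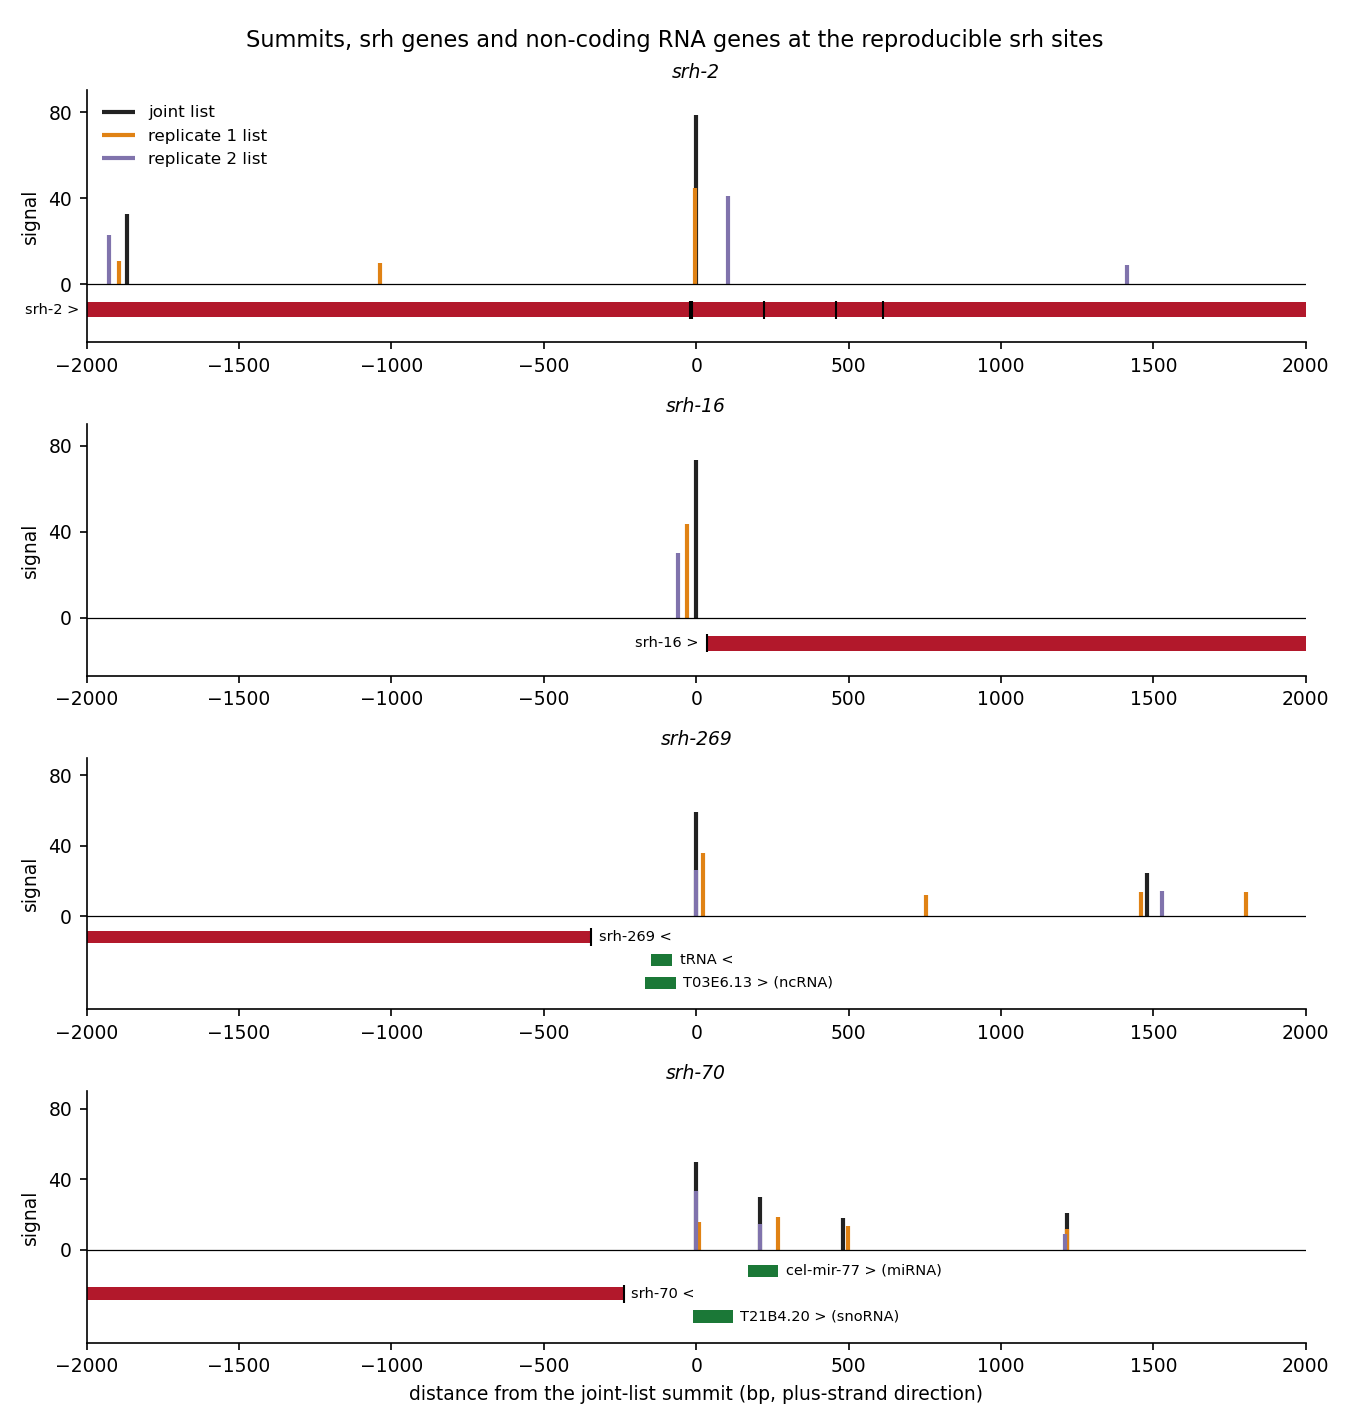
Positions of summits (vertical lines, height is the peak caller's signal, whose scale need not be the same between lists) and annotated srh and non-coding RNA genes (bars, with black ticks at srh transcript starts and > or < for the strand, other protein-coding genes not drawn) within 2000 bp of the joint-list summit (horizontal axis, bp) at the 4 srh genes with a reproducible summit. The replicate lines are drawn over the joint line, and non-coding RNA genes are green: they adjoin the summits of srh-269 and srh-70, and none is drawn at srh-2 or srh-16.

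Below the reproducibility threshold, 8 more srh genes had a joint-list summit, with signals from 19.1 to 38.98. The strongest was srh-76, with a joint signal of 38.98 (rank 1553), 709 bp upstream of the start. Its replicates stood far apart in rank, with a signal of 9.996 (rank 12110) in replicate 1 and 27.5 (rank 869) in replicate 2. At srh-282 the joint signal was 36.6 (rank 1804), with 20.3 in replicate 1 and 15.7 in replicate 2. That summit lay 991 bp upstream of srh-282 and only 30 bp from a start of sma-10, a gene of body size and BMP-type signalling.

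Several of the weaker sites were also nearer to another gene. The strongest summit assigned to srh-89 had a joint signal of 30.4 and 14.4 in replicate 2, with none in replicate 1, and was 170 bp from the start of F25E5.1. A weaker joint-list summit lay in the coding sequence of srh-89, 140 bp downstream of its start. Its signal was 16.9, with 11.7 in replicate 2. The srh-49 summit had a joint signal of 29.9, with 13.4 in replicate 1 and 17.2 in replicate 2, and lay in a coding exon of pnk-1, the pantothenate kinase gene. The srh-35 summit had a joint signal of 23.7, with 18.3 in replicate 1 and 8.37 in replicate 2, and was 50 bp from the start of M02H5.8. For srh-282, srh-89 and srh-35 the neighbour's start was the nearest one to the strongest summit.

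The 3 weakest sites lay in coding exons of the receptor genes themselves. They were srh-171, with a joint signal of 20.7 and 10.3 in replicate 1, srh-247, with 19.6, 10.4 and 7.77 in the joint list and replicates 1 and 2, and srh-300, with 19.1 and 14.9 in replicate 1. At srh-171 and srh-300 replicate 2 had no summit. All 3 joint signals were below the median of 21.8 over the joint list.

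Over the 12 genes, the strongest joint-list summit was nearest to the srh gene's own start in 9 (75%, 42.8 to 94.5), against 4029 of 4912 other genes (82.0%, 80.9 to 83.1). The median distance from an own start was 291 bp for srh and 245 bp for other genes. The summit was intergenic in 6 srh genes (50%, 21.1 to 78.9) and 58.7% of other genes. It lay in a coding exon in 4 srh genes (33.3%, 9.92 to 65.1) and in 11.1% of other genes (10.2 to 11.96). Each of these srh intervals holds the share found for other genes.

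**Figure D5:**
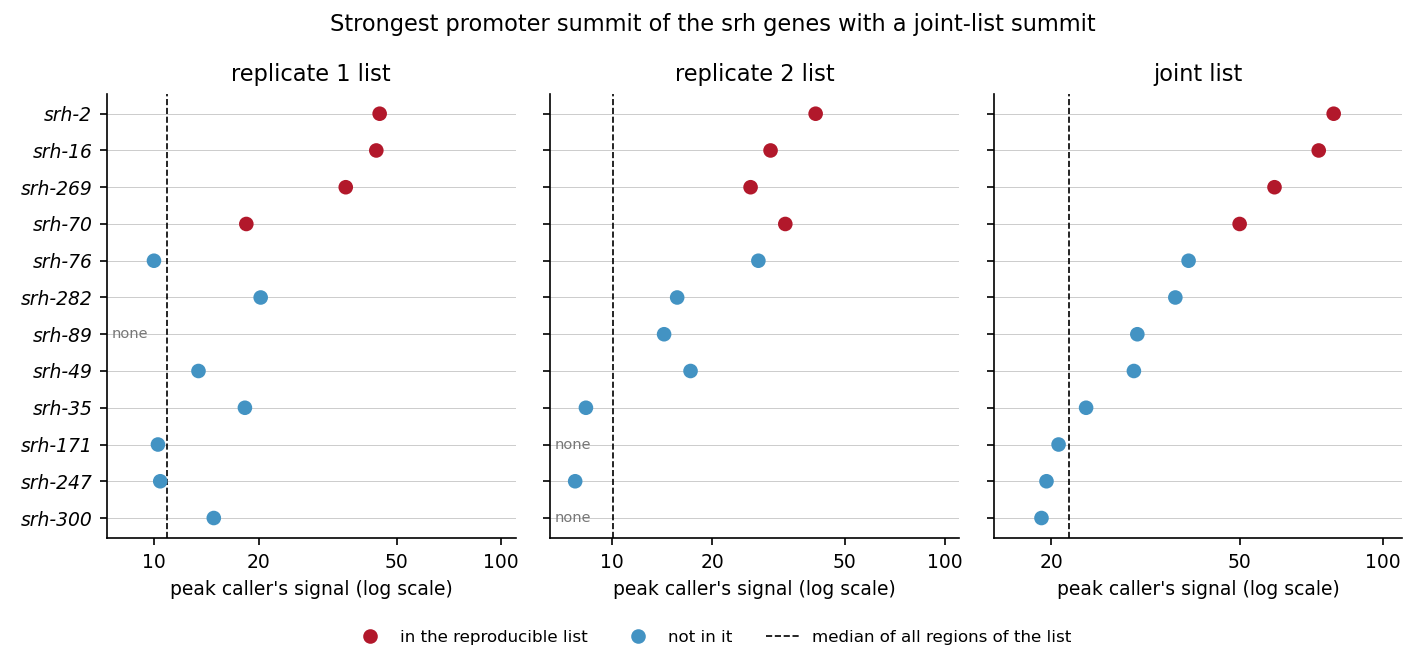
Signal of the strongest promoter summit (horizontal axis, log scale, dashed line at the median of all regions of the list) in each list for the 12 srh genes with a joint-list summit, ordered by joint signal, with genes in the reproducible list in red. The 4 red genes stand right of the median in all 3 lists, whereas srh-171 and srh-247 stand left of it wherever they have a summit.

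Outside the joint list, 38 further srh genes had a summit in a replicate list, and none of them had matching summits. Their signals ran from 8.41 to 13.2 with a median of 9.88 over 21 genes in replicate 1, and from 7.90 to 18.8 with a median of 9.07 over 18 genes in replicate 2. By comparison, the srh genes with a joint-list summit had a median of 18.3 over 11 genes in replicate 1 and 21.7 over 10 genes in replicate 2 (the joint list was called from the same replicates, so this difference is no independent measure). The strongest of the 38, named after their values were seen, were srh-17 (18.8, rank 2219, replicate 2) and srh-51 (13.2, rank 5701, replicate 1). Of the 38, only srh-75 was in both replicate lists, with signals of 13.1 and 11.1. Summits were shared between neighbouring receptors in 2 cases, srh-241 with srh-243 and srh-181 with srh-182, all in replicate 1.

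No list had a summit for the 3 srh genes srh-142, srh-220 and srh-234, named for their well described expression and not for their values. The gene srh-142 is known as a marker of the ADF sensory neurons, and srh-220 and srh-234 are expressed in the ADL sensory neurons.

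Small RNA genes other than piRNA genes were rare in srh windows, but where they occurred a summit was present. A tRNA, snoRNA, snRNA, miRNA or rRNA gene lay in the window of 3 srh genes (1.36%) and of 397 other genes (2.01%). The 3 were srh-269 with its tRNA gene, srh-70 with T21B4.20 and cel-mir-77, and srh-282 with the microRNA gene cel-mir-269. All 3 had matching summits in both replicates and a joint-list summit (exact interval 29.2% to 100%), and 2 had a reproducible one. Among the 217 srh genes without such a gene, 9 had a joint-list summit (4.15%, 1.91 to 7.73) and 2 a reproducible one (0.922%, 0.112 to 3.29), namely srh-16 and srh-2.

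The same contrast was present outside the family. Of other genes with a small RNA gene in the window, 228 of 397 had a joint-list summit (57.4%, 52.4 to 62.3) and 17.6% a reproducible one, against 24.2% and 3.07% of other genes without. Among srh genes with a joint-list summit, the strongest was within 250 bp of a small RNA gene in 2 of 12 (16.7%, 2.09 to 48.4), against 155 of 4912 other genes (3.16%, 2.68 to 3.68). Among reproducible summits it was 2 of 4 for srh and 52 of 665 for other genes (7.82%). The part of the small RNA genes in the summits at srh-269 and srh-70 was not tested. Other annotated features differed too. A pseudogene lay in the window of 37 srh genes (16.8%), none with a joint-list summit, and of 4.18% of other genes. Genes of other non-coding RNAs lay in 6 srh windows (2.73%) and 9.82% of other windows. Of those 6 srh genes, 2 had a joint-list summit and 2 a reproducible one. Genes for piRNA, counted apart from the small RNA genes above, lay in 6 srh windows (2.73%) and 4.31% of other windows. None of these 6 srh genes had a joint-list summit.

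The srh genes lie mostly on chromosome arms, where other genes also had fewer summits than elsewhere. Chromosome V held 180 of the srh genes (81.8%) and 24.4% of other genes, and the chromosome arms, outside the central 50% of length, held 165 srh genes (75%) and 44.4% of other genes. Chromosome II held 27 srh genes, IV 7, I 3, X 2 and III 1. Another srh start lay within 5000 bp for 111 srh genes (50.5%), among them 5 of the 12 with a joint-list summit. On the arms of chromosome V, 6 of 134 srh genes had a joint-list summit (4.48%, 1.66 to 9.49), against 344 of 2236 other genes (15.4%, 13.9 to 16.9). In the centre of V the counts were 3 of 46 srh genes (6.52%, 1.37 to 17.9) and 635 of 2578 other genes (24.6%, 23.0 to 26.3). Outside V, they were 3 of 40 srh genes (7.5%, 1.57 to 20.4) and 3933 of 14939 other genes (26.3%, 25.6 to 27.0). Reproducible summits on the arms of V lay at 2 of 134 srh genes (1.49%, 0.181 to 5.29) and 28 of 2236 other genes (1.25%, 0.834 to 1.80), so there the srh share was not the lower one.

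Most of the sequence in srh windows occurred once in the genome. The median share of unique 31-base sequences was 98.8% in srh windows and 100% in those of other genes. On the arms of V it was lower for srh, at 96.9% (lower quartile 89.0%) against 98.7% (91.7%) for other genes. Under 50% of such sequences were unique in 6 srh windows and 615 other windows. Most srh genes had 1 annotated transcript start, 204 of 220 (92.7%) against 72.4% of other genes. Among genes with 1 start, 10 srh genes (4.90%, 2.38 to 8.83) and 2960 of 14294 other genes (20.7%, 20.05 to 21.4) had a joint-list summit. Mapping of the reads was not tested, since the lists hold none.

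Other chemoreceptor families had similarly low shares in the joint list. A joint-list summit was present at 12 of 220 srh genes (5.45%) and 68 of 1082 other chemoreceptor genes (6.28%, 4.91 to 7.90). Among the relatives it was present at 12 of 193 str, 4 of 61 sri, 2 of 67 srd and 0 of 39 srj genes, the last of which allows a share of up to 9.03% by the exact interval. In replicate 1 the share was 14.5% for srh and 11.7% for other chemoreceptors, and in replicate 2 it was 12.7% and 13.9%. The sri family differed between replicates, with 4 of 61 genes in replicate 1 and 16 of 61 in replicate 2. On the arms of V, genes that are no chemoreceptors stood higher, at 321 of 1795 (17.9%, 16.1 to 19.7).

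Strong summits were found at a larger share of srh than of the other chemoreceptor genes pooled, though on few genes. Reproducible summits lay at 4 srh genes (1.82%, 0.498 to 4.59) and 2 other chemoreceptor genes (0.185%, 0.0224 to 0.666), which were srz-62 with a signal of 97.8 and sri-5 with 55.2. Matching replicate summits lay at 9 srh genes (4.09%, 1.89 to 7.62) and 16 other chemoreceptor genes (1.48%, 0.848 to 2.39). The median joint signal was 33.5 for srh and 19.3 for other chemoreceptors. The intervals of srh and the pooled genes overlapped for matching and for reproducible summits. Within the pool, the sri family stood close to srh, with a reproducible summit at 1 of 61 genes (1.64%, 0.0415 to 8.80). It had matching summits at 3 of 61 genes (4.92%, 1.03 to 13.7) and a median joint signal of 34.1 over 4 genes. The srd, srj and str families had no reproducible summit. Without peaks near small RNA genes, 2 srh genes had a reproducible summit (0.909%, 0.110 to 3.25).

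Genes for the function of chemosensory neurons had joint-list summits at a share near that of all genes. Of a list of 50 genes for signalling, receptor trafficking and cell fate in these neurons, 49 were matched, and 11 of them had a joint-list summit (22.4%, 11.8 to 36.6), against 24.7% of all genes. In replicate 1 and in replicate 2 it was 15 of 49 (30.6%, 18.3 to 45.4), against 31.3% and 35.6% of all genes. Matching summits were present at 9 (18.4%, 8.76 to 32.0), against 13.1% of all genes. Only 49.0% of the listed genes had 1 transcript start, against 72.4% of other genes. More of them thus had several windows, and the shares were not adjusted for this. The 1 reproducible site (2.04%, against 3.35% of all genes) was at eat-16, which encodes a regulator of G protein signalling, with a signal of 110 (rank 131). Weaker joint-list sites were at the calcineurin gene tax-6 (33.4), the RFX factor gene daf-19 (31.7), which controls cilium genes, the cGMP-dependent kinase gene egl-4 (27.6) and odr-8 (26.9), which acts in the delivery of receptors to cilia. The arrestin gene arr-1 (21.6) and the G protein subunit genes gpb-2 (19.9) and gpa-9 (19.2) also had one, as did ceh-37, nhr-69 and unc-101. Most of the 49 genes had none, among them tax-2, tax-4, osm-9 and odr-10.

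Short motifs were searched on both strands within 50 bp of the strongest joint-list summit of each of the 12 srh genes. The AP-1 site TGANTCA was present at srh-35 and srh-49, 2 of 12 summits (16.7%, 2.09 to 48.4), against 4.15% of the 13085 joint-list summits and 4.45% of the 899 reproducible ones. It was in none of the 4 reproducible srh sites. The CREB-type site TGACGTCA and the E-box CACGTG were in 0 of 12, which allows up to 26.5% by the exact interval, against 0.795% and 2.76% of joint-list summits. The E-box CACCTG was at srh-49 only, and 2.90% of joint-list summits held it.

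The GA repeat GAGAGA was the motif found most often at the srh summits. It lay at srh-2, srh-269, srh-76, srh-282 and srh-89, 5 of 12 (41.7%, 15.2 to 72.3), against 12.4% of joint-list and 29.6% of reproducible summits. In windows centred 500 bp from the same summits, on the side of lower coordinates only, it was found in 0 of 12. That allows up to 26.5% by the exact interval. At srh-2 the match lies just beyond the stretch printed above, and in srh-269 and srh-76 it is in capitals. These matches describe letters in a window and do not show which protein was bound.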

How the data were processed

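Signal per region and the -log10 q-value per region were deposited by the authors in narrowPeak lists. Per the deposited file descriptions, regions were called from alignments with a control; the aligner, caller, signal scale and threshold value were not given in the sources used. Because regions were called against a control, sites of high control background could be lowered or missing. The q-value set no threshold here. Lists on ce10 were not used, and 0 columns of per-sample values were left out.

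Positions were set against WBcel235 with Ensembl release 115; sequences were read from the RefSeq copy of that assembly. Shares have exact Clopper-Pearson intervals at 95%, and no test across genes was run. Named genes were all srh genes with a reproducible summit, the 15 strongest by joint signal (12 had one), the 5 strongest per replicate list, the 3 strongest below the threshold, those within 250 bp of a small RNA gene, and genes that share their summits, of which 1 is not reported here. The genes srh-142, srh-220 and srh-234 were named outside these rules, for their described expression. Also outside them, and named after values were seen, were some srh genes with a replicate summit only. So were neighbouring genes at the sites, and genes of the related families and of the chemosensory list. Members and lists were chosen with earlier results of these data known. Alternatives changed the window, overlap, matching distance, list, background and replicate. The window code was tested on simulated summits. Scripts ran on matplotlib 3.10.9, scipy 1.17.1, pandas 2.3.3 and numpy 2.4.6 under Python 3.11.15.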

Additional observations from a re-analysis of the deposited data

How the results depend on the processing

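Of 72 alternative settings, 55 left the value within the range set for it and 17 moved it. The range for a share is its exact interval, which is wide for few genes. The share of srh genes with a reproducible summit stayed inside its interval, but fell to 0.909%, 2 genes in place of 4, without peaks near small RNA genes and in the stronger part of that list. The 899 strongest regions of a single replicate, in place of that list, gave 1.82% without replicate 1 and 1.36% without replicate 2. Those regions passed no test of reproducibility. With windows from 250 bp upstream to 100 bp downstream, the srh shares were 2.27% in the joint list, 5% in replicate 1, 4.55% in replicate 2 and 1.82% for matching summits, where other genes had 12.2%, 14.9% and 16.8% in those lists. With 500 bp upstream, replicate 1 gave 10% of srh genes and 23.9% of other genes. With 2000 bp upstream, replicates 1 and 2 gave 22.7% and 25.5% of srh genes and 42.1% and 48.1% of other genes. Any overlap of region and window gave 20.5% and 18.6% of srh genes in these lists. That setting was not counted for other genes, so these 2 shares have no like background. With the strongest 13085 regions of a single replicate in place of the joint list, the srh share ran from 5.91% without replicate 1 to 10% without replicate 2, and that of other genes was 23.5% and 24.2%. The summit was nearest to the own srh start in 100% of 8 genes with 500 bp and 100% of 5 genes with 250 bp upstream. With 2000 bp upstream it was nearest in 50% of 18 genes. Narrower windows favour the own start by their design. As background, other genes with a joint-list summit made up 20.3% on chromosome V, 21.8% on all arms and 15.4% on the arms of V. At 500 bp to the lower-coordinate side of the 12 summits, TGANTCA and GAGAGA were each found in 0% (up to 26.5% by the exact interval). The alternatives of the earliest start, of genes with 1 start and of genes without a small RNA gene were chosen after seeing the data, and left the srh shares inside their intervals.

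No paired analysis was possible because the series has 1 group. Both replicates rest on peak calls without read counts, so depth cannot be weighed, and a missing summit shows only that no region was listed. With 12 joint-list genes and 4 reproducible ones, shares within the family carry wide intervals. Summits shared between neighbouring genes, as at srh-16, srh-70, srh-282, srh-89 and srh-35, cannot be assigned to 1 gene.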
